A study of Homo sapiens with 12 samples.

Results

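The nuclear tRNA genes of HEK293T cells were examined as the rows whose symbol has the form of a RefSeq nuclear tRNA name, with the letter of the amino acid, the 3-base anticodon and 2 numbers (for example TRG-GCC1-1, a glycine tRNA gene with the anticodon GCC). A row was kept when it had a mean of at least 10 counts over the 6 libraries of the CN fraction, so the level in CN chose the members and is given here as a description. In all, 214 of 487 listed nuclear tRNA genes passed, among 61163 genes in the table. They carried 43 anticodons and fell into 20 classes, namely 19 amino acids and initiator methionine (iMet, symbols starting TRX), which was kept apart from elongator methionine. All 14 listed phenylalanine tRNA genes stayed below the minimum, and selenocysteine had no member.

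The study compared wild-type HEK293T cells (HEK WT), an immortalised human embryonic kidney line, with HEK UL1 KO cells, in which HNRNPUL1, encoding the RNA-binding protein hnRNP UL1, was disrupted by CRISPR-Cas9 with targets in exons 2 and 3. Cells of each genotype, with no treatment named in the labels, were separated into a nucleolar fraction (NO) and a fraction holding cytoplasm and the remaining nucleus (CN). There were 4 groups of 3 replicate libraries, HEK WT CN, HEK UL1 KO CN, HEK WT NO and HEK UL1 KO NO. The labels give replicate numbers only and do not say how the replicates were made. A single knockout line was compared with a single wild-type line, and the sources used here do not say whether other differences exist between the lines.

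tRNAs carry amino acids to the ribosome and read codons through their anticodon. Their genes are transcribed by RNA polymerase III from promoters inside the gene (the A and B boxes), and the precursors lose their 5′ leader and 3′ trailer, in some cases an intron, gain a CCA end and are heavily modified before export to the cytoplasm. Part of this early processing is known to take place in the nucleolus in some organisms. Many tRNA genes are exact copies of each other, so a short read can match several of them.

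This sharing of reads was visible in the counts. The 214 members held 107 different gene sequences, and 137 members belonged to 30 groups of at least 2 identical copies, the largest with 11 copies (TRD-GTC2). Copies of 1 sequence had similar counts in many groups but not in all. The ratio of highest to lowest copy had a median of 1.40, was under 1.5 in 17 of the 30 groups and reached 3.67 (TRK-TTT3). In addition, 28 members had the same counts as another member in all 12 libraries. Many reads were therefore taken to be listed at more than 1 copy, so single genes are not independent of each other, and the sums by amino acid and anticodon weight a sequence by its number of copies. Counts of precursor and mature tRNA cannot be told apart, and of the 210 members with coordinates 25 lay in an exon and 64 in an intron of another GENCODE gene, whose reads may be included.

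The gene sequences on which the results turn are printed 5′ to 3′ with the anticodon in capitals. Bases are those of the GRCh38 genome at the RefSeq coordinates, which 210 of the 214 members had. The strand was inferred from the place of the anticodon and the letters around it. The first pair has the same glycine anticodon, the second the same elongator methionine anticodon, and the genes of a pair had different fold changes in HEK UL1 KO. The lysine pair shows both lysine anticodons. The others are the initiator methionine gene and the glutamine and histidine genes with the highest CN counts of their class.
TRG-GCC1-1: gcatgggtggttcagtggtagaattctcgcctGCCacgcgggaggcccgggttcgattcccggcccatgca
TRG-GCC2-1: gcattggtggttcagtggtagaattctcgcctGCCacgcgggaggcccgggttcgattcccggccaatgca
TRM-CAT5-1: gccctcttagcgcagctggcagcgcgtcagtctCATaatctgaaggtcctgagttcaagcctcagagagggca
TRM-CAT4-1: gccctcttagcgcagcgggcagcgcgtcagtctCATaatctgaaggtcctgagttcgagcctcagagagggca
TRK-TTT3-1: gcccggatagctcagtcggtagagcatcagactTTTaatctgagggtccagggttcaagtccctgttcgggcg
TRK-CTT2-1: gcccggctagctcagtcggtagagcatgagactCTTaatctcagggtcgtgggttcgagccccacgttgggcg
TRX-CAT1-5: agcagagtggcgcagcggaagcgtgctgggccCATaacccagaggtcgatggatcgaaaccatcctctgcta
TRQ-CTG6-1: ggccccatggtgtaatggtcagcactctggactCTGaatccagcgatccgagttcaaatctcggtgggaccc
TRH-GTG1-8: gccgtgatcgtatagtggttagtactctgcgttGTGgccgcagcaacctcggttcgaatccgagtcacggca

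Counted from the 5′ end of the gene, TRG-GCC2-1 differed from TRG-GCC1-1 by G5T and C66A, and TRM-CAT5-1 differed from TRM-CAT4-1 by G17T and G57A. TRG-GCC1-1 lies at chr1:161443304-161443374 on the plus strand, in an intron of the GENCODE gene ENSG00000283360 on the opposite strand. TRG-GCC2-1 is found at chr1:161523847-161523917 (minus strand), across from an exon of FCGR2A on the opposite strand. TRM-CAT5-1 lies at chr6:26701483-26701555 on the plus strand, outside annotated genes. TRM-CAT4-1 is found at chr6:26735370-26735442 (minus strand), outside annotated genes. TRK-TTT3-1 lies at chr1:204506527-204506599 on the plus strand, outside annotated genes. TRK-CTT2-1 is found at chr1:146039401-146039473 (plus strand), outside annotated genes. TRX-CAT1-5 lies at chr6:27332985-27333056 on the minus strand, outside annotated genes. TRQ-CTG6-1 is found at chr6:27791356-27791427 (minus strand), outside annotated genes. TRH-GTG1-8 lies at chr15:45200413-45200484 on the minus strand, in an exon of ENSG00000260035 and within SHF, both on the same strand.

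Total counts per library ranged from 54349399 to 104040073 in CN and from 37141666 to 83019079 in NO, of which rRNA genes took 77.3 to 80.7% and 66.4 to 75.8%. HNRNPUL1, the targeted gene, gave 17.8, 15.4 and 17.99 CPM (counts per 1000000 counts of the library, here after TMM scaling, which corrects for library composition) in HEK WT CN and 4.75, 4.80 and 4.86 in HEK UL1 KO CN. Its log2 fold change was −1.83 (SE 0.0828, edgeR adjusted p = 2.12e-07) in CN and −1.997 (SE 0.323, adjusted p = 0.00649) in NO, where it was −1.42 and not called with total counts. The targeted gene was lower in the libraries labelled HEK UL1 KO. All 5 HEK293 marker genes were detected in CN. Of these, 1 was lower and 4 were higher in HEK UL1 KO CN, where 22.3% of all genes were lower and 15.6% higher. Markers of blood, endothelium, red cells, liver and muscle summed to at most 1.34 unscaled CPM (with no TMM factor) in CN and 8.74 in NO. HEK WT NO 3 stood apart from its replicates with a TMM factor of 1.40 against 0.690 and 0.622. The HEK UL1 KO NO libraries had factors of 1.34, 1.09 and 1.15, nearer to HEK WT NO 3 than to its replicates. Without HEK WT NO 3, genotype and scaling factor therefore cannot be told apart in NO. HEK WT CN 3 had the factor 0.760 against 1.01 and 1.04 in its replicates and 1.07, 1.08 and 1.09 in HEK UL1 KO CN. With all libraries the CN factors thus do not overlap between the genotypes, so genotype and scaling factor cannot be told apart in CN either. Results are also given without HEK WT NO 3 and HEK WT CN 3.

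The members together received between 13375 and 19591 counts per library in HEK WT CN and between 3577 and 7261 in HEK UL1 KO CN. In unscaled CPM, the share of all counts of the library, this was 194, 167 and 188 in HEK WT CN (183 ± 14.2, SD, n = 3) and 95.4, 104 and 65.8 in HEK UL1 KO CN (88.4 ± 20.01, n = 3). The groups did not overlap, and HEK WT CN was 2.07-fold higher than HEK UL1 KO CN. In NO the values were 101, 47.8 and 91.2 in HEK WT (80.1 ± 28.4, n = 3) and 46.7, 70.9 and 52.6 in HEK UL1 KO (56.7 ± 12.7, n = 3), 1.41-fold higher in HEK WT on average, with overlapping groups. HEK WT NO 2 fell between the HEK UL1 KO libraries. The mean level in CN was 2.28-fold that in NO in HEK WT and 1.56-fold in HEK UL1 KO. When each sequence was counted once by averaging its copies, the means were 71.2 against 35.2 unscaled CPM in CN and 31.2 against 20.1 in NO. snoRNA genes, given for comparison, summed to 1116 and 1130 unscaled CPM in HEK WT CN and HEK UL1 KO CN and to 37610 and 30137 in NO, with overlap between genotypes in both fractions. These are shares of all RNA sequenced, so less tRNA and more of other RNA cannot be told apart.

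**Figure D1:**
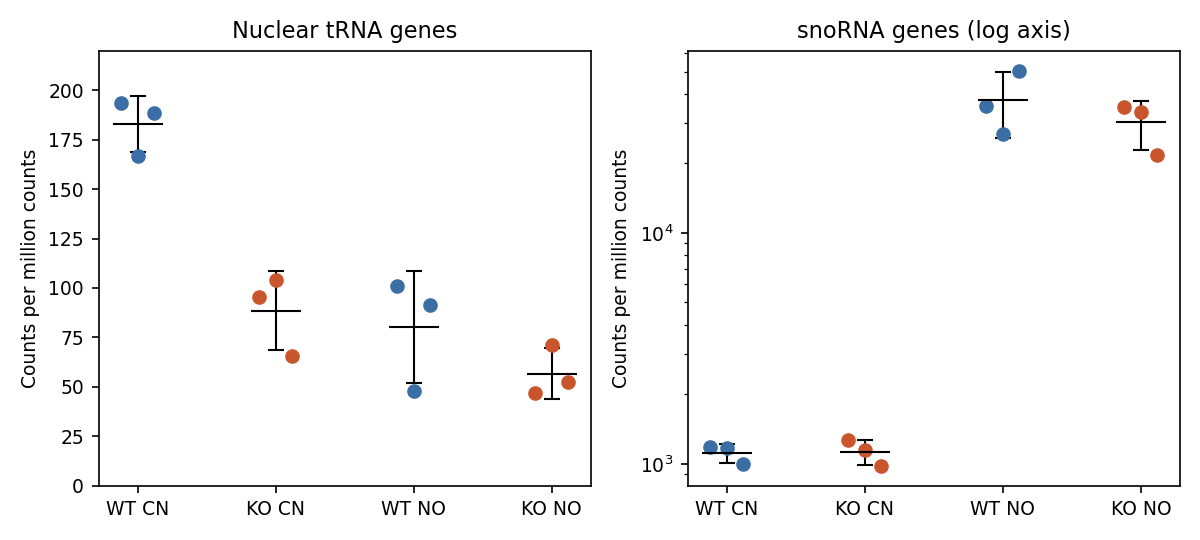
Unscaled CPM (counts per 1000000 counts) on the 214 nuclear tRNA genes (left, linear axis) and on snoRNA genes (right, log axis) in each of the 12 libraries (points), with the mean (line) and SD (bars) of the 3 libraries of each group. The HEK UL1 KO CN points for tRNA lie between 65.8 and 104, below the HEK WT CN points between 167 and 194, while the genotypes overlap in NO and for snoRNA.

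In the CN fraction most nuclear tRNA genes were lower in HEK UL1 KO. Of 202 members tested across the whole table with edgeR's quasi-likelihood test, 147 were lower at an adjusted p under 0.05 and none was higher. This is 72.8% of those tested, against 22.3% of all genes lower and 15.6% higher. The CPM of HEK WT and HEK UL1 KO did not overlap in 163 members, all lower (80.7%, against 28.1% of all genes). The median log2 fold change was −1.19, against 0.04 over all genes tested, and 196 of 202 values were below 0. The 147 genes held 70 of the 107 sequences and came from 18 of the 20 classes. The number lower was 124 without HEK WT CN 3, 88 without HEK UL1 KO CN 3 and 90 when scaled to total counts. As the CN scaling factors do not overlap between the genotypes, the number is tied to the scaling.

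The minimum on the CN mean bears on these counts. All 214 members had a HEK WT CN mean of at least 10, whereas 59 had a HEK UL1 KO CN mean under 10 and so passed through HEK WT. Among the 155 members with both means at 10 or more, 111 were lower and the median log2 fold change was −1.08. The 59 others stay in the sums by amino acid and anticodon, the features and the clusters below. No sum without them is given, so those results share this limit. Just inside the minimum, TRS-AGA1-1, a serine tRNA gene, had 12, 9 and 31 counts in HEK WT CN and 2, 5 and 1 in HEK UL1 KO CN. TRI-AAT8-1 (isoleucine) had 8, 14 and 18 against 5, 8 and 7, and TRK-CTT4-1 (lysine) 15, 7 and 16 against 8, 8 and 6. The nearest genes left out had similar counts, with TRL-CAA3-1 (leucine) at 4, 15 and 27 against 9, 2 and 2, TRT-TGT1-1 (threonine) at 19, 13 and 18 against 0, 2 and 7, and TRG-CCC2-2 (glycine) at 15, 9 and 15 against 7, 13 and 0.

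**Figure D2:**
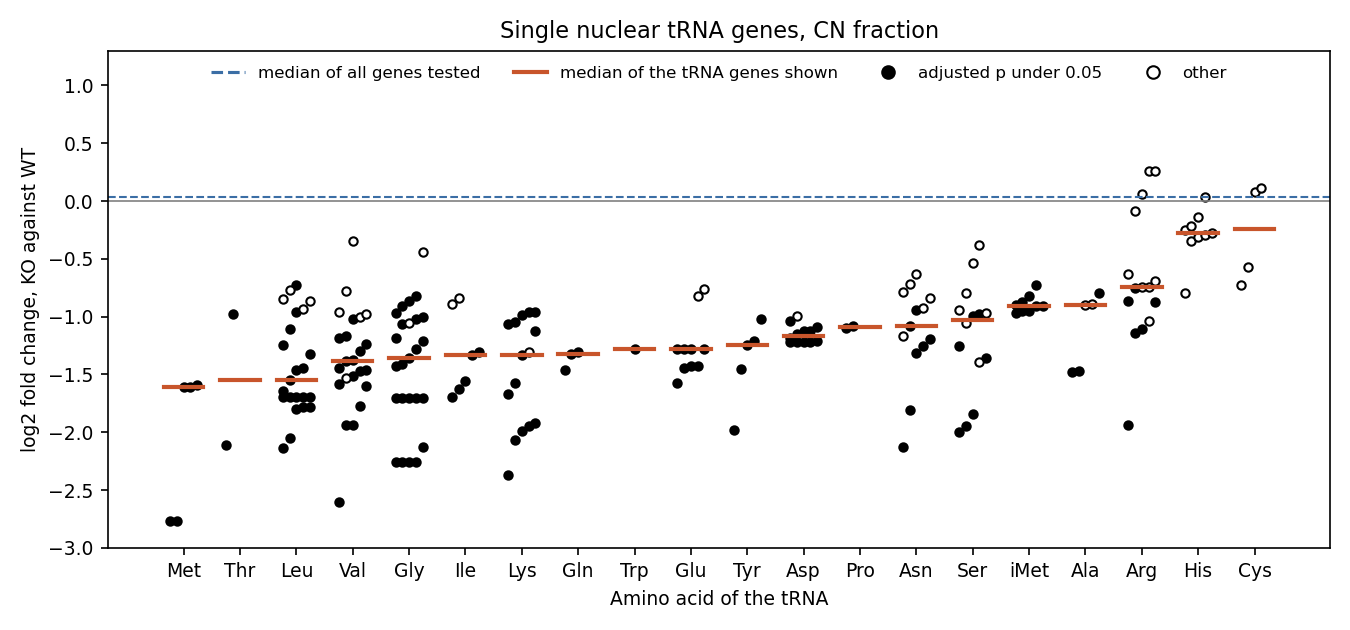
log2 fold change of HEK UL1 KO against HEK WT in CN for the 202 tested nuclear tRNA genes, 1 point a gene, by amino acid. Filled points passed an adjusted p of 0.05, thick lines mark the median of each class and the dashed line marks the median of all genes tested (0.04). Most points lie below 0 in each class except cysteine, and the 6 points above 0 are arginine, cysteine and histidine tRNA genes.

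Summed by amino acid, 18 of 20 classes were lower in CN (edgeR on the whole table, where 22.2% of rows were lower), with log2 fold changes from −2.34 to −0.29 and a median of −1.31. The same 18 classes had no overlap in CPM between the genotypes, against 28% of rows lower without overlap, and 17 classes were lower without HEK WT CN 3. Elongator methionine, which is inserted at internal AUG codons, had the largest fall. Its sum was 2.09, 1.96 and 4.77 CPM in HEK WT CN and 0.628, 0.626 and 0.471 in HEK UL1 KO CN, a log2 fold change of −2.34 (SE 0.340, adjusted p = 0.000388). HEK WT CN 3 was the highest library, and all 3 HEK WT libraries were above all HEK UL1 KO libraries. Initiator methionine, which starts every protein, was also lower but by less, with 12.2, 11.6 and 15.8 CPM against 7.57, 8.04 and 5.27 and a log2 fold change of −0.92 (SE 0.157, adjusted p = 0.00111). The difference between the initiator and elongator changes was not tested.

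Glutamate and glycine tRNA genes held the most counts. The glutamate sum was 44.3, 37.0 and 54.1 CPM in HEK WT CN and 17.8, 22.3 and 12.4 in HEK UL1 KO CN (log2 fold change −1.36, SE 0.191, adjusted p = 0.000308). The glycine sum was 45.7, 33.8 and 49.5 CPM against 17.7, 16.6 and 8.76 (−1.58, SE 0.227, adjusted p = 0.000358). Neither class had an overlap between the genotypes, and HEK UL1 KO CN 3 was the lowest library in both.

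The classes that carry aliphatic amino acids were all lower without overlap. Leucine went from 13.1, 15.1 and 16.7 CPM in HEK WT CN to 5.41, 6.75 and 5.07 in HEK UL1 KO CN (log2 fold change −1.38, SE 0.121, adjusted p = 1.52e-05), the smallest adjusted p of the classes. Isoleucine went from 4.81, 4.31 and 8.12 to 1.94, 2.25 and 2.10 CPM (−1.45, SE 0.213, adjusted p = 0.000409), and valine from 13.1, 10.3 and 19.6 to 7.32, 5.31 and 3.11 CPM (−1.44, SE 0.279, adjusted p = 0.00231). Alanine had a smaller fold change, from 4.27, 3.01 and 6.53 to 2.06, 2.65 and 2.10 CPM (−1.01, SE 0.238, adjusted p = 0.00688).

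The basic amino acids had different values, a difference that was not tested. Lysine went from 8.52, 6.11 and 10.8 CPM to 3.52, 3.63 and 2.66 (log2 fold change −1.36, SE 0.189, adjusted p = 0.00028) and arginine from 5.61, 5.11 and 6.38 to 3.88, 3.74 and 2.32 (−0.77, SE 0.169, adjusted p = 0.00456). Histidine was not called, with 6.62, 4.21 and 7.07 CPM in HEK WT CN and 5.54, 6.64 and 2.37 in HEK UL1 KO CN (−0.29, SE 0.299, adjusted p = 0.472). The genotypes overlapped for histidine, as they did for cysteine, the other class not called (0.857, 0.874 and 2.07 against 0.983, 0.985 and 0.673 CPM; −0.51, SE 0.330, adjusted p = 0.247). Without HEK UL1 KO CN 3 the histidine value was 0.04, and without HEK WT CN 3 the cysteine value was 0.09.

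The remaining classes were lower without overlap. Aspartate went from 10.5 ± 4.58 to 4.65 ± 0.564 CPM (log2 fold change −1.18, adjusted p = 0.00447), asparagine from 6.27 ± 1.66 to 2.86 ± 0.737 (−1.13, adjusted p = 0.00145) and glutamine from 5.61 ± 1.49 to 2.18 ± 0.533 (−1.36, adjusted p = 0.000467), each as mean ± SD with n = 3. Among the hydroxyl amino acids, serine went from 6.17 ± 1.53 to 2.61 ± 0.592 CPM (−1.23, adjusted p = 0.000608), threonine from 1.13 ± 0.364 to 0.432 ± 0.0791 (−1.39, adjusted p = 0.00236) and tyrosine from 3.77 ± 1.37 to 1.48 ± 0.382 (−1.34, adjusted p = 0.00222). Proline, at 1.42 ± 0.200 against 0.655 ± 0.222 CPM (−1.11, adjusted p = 0.00379), and tryptophan, at 0.310 ± 0.115 against 0.128 ± 0.0350 (−1.29, adjusted p = 0.031), were the classes with the fewest counts next to threonine and cysteine. Tryptophan is 1 gene, with 15, 30 and 31 counts in HEK WT CN and 8, 8 and 10 in HEK UL1 KO CN. It passed the minimum through HEK WT, so its fall is given as a description.

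**Figure D3:**
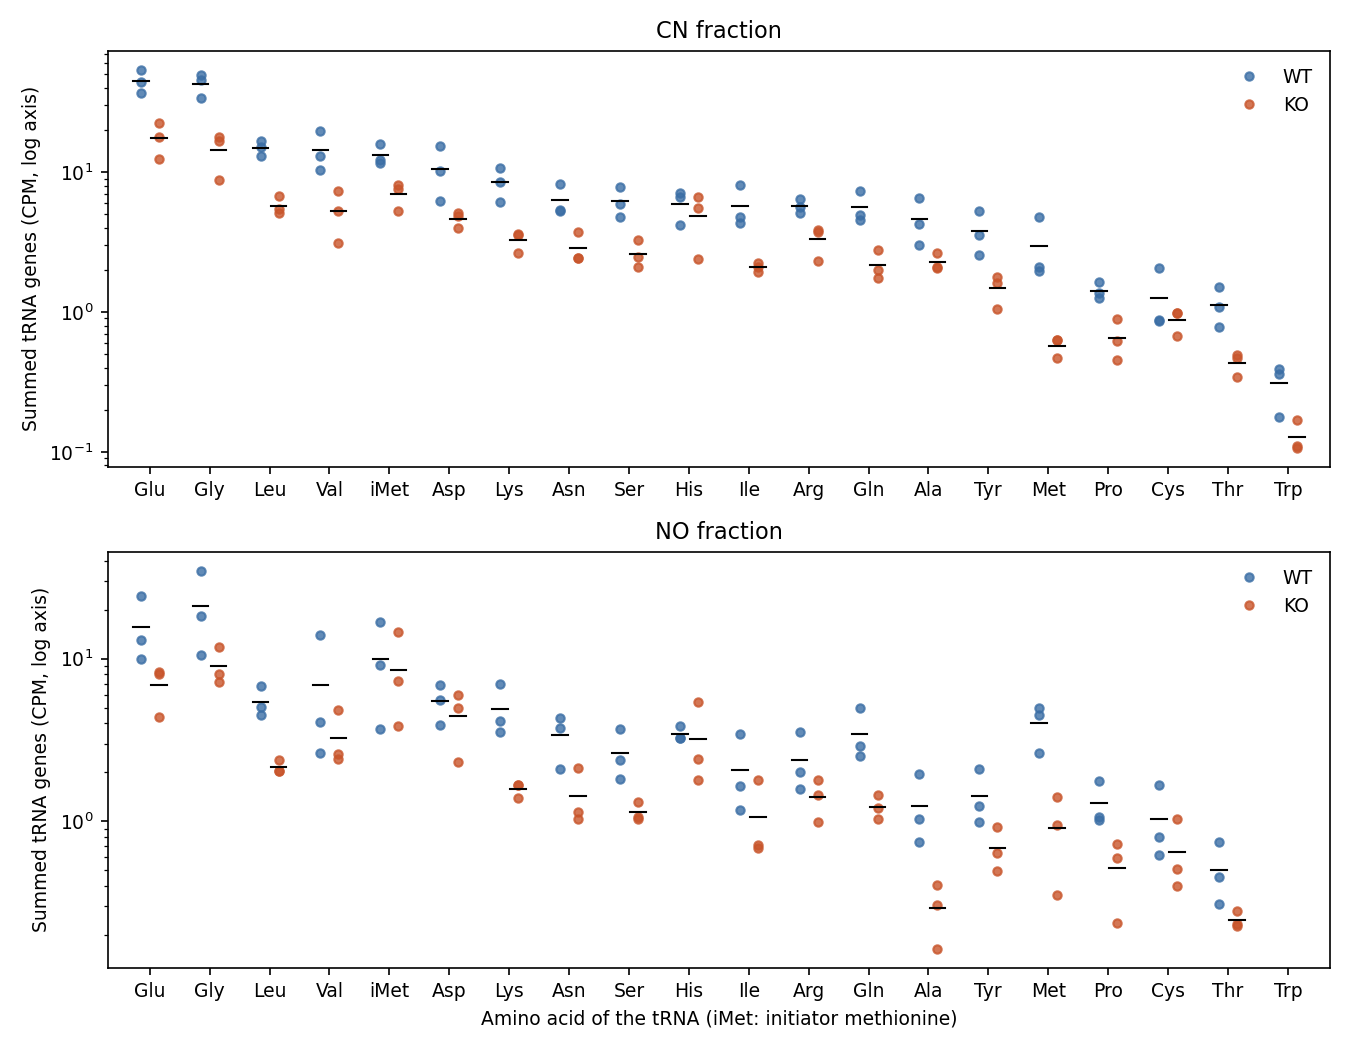
Summed CPM (log axis) of the nuclear tRNA genes of each amino acid in the 6 CN libraries (top) and the 6 NO libraries (bottom), 1 point a library, with a line at the mean of 3 libraries. In CN the HEK UL1 KO points lie below the HEK WT points in 18 classes and overlap them for histidine and cysteine; tryptophan was not tested in NO and is not drawn there.

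Among anticodons, 34 of 40 tested sums were lower in CN (22.2% of the rows of that table) and none was higher, and 34 did not overlap in CPM (28% of rows). The 6 anticodons with the most CN counts, Glu-CTC, Gly-GCC, iMet-CAT, Asp-GTC, Val-CAC and His-GTG, held 57.0% of all member counts. Glu-CTC alone held 21.7%, with 43.1, 36.3 and 52.8 CPM in HEK WT CN and 17.4, 21.7 and 12.1 in HEK UL1 KO CN (log2 fold change −1.37, SE 0.189, adjusted p = 0.000285). Gly-GCC held 14.2%, with 33.4, 24.2 and 33.5 CPM against 12.02, 10.1 and 5.54 (−1.72, SE 0.229, adjusted p = 0.000227). Val-CAC went from 10.3 ± 3.43 to 3.69 ± 1.60 CPM (−1.46, SE 0.292, adjusted p = 0.00274). The values of iMet-CAT, Asp-GTC and His-GTG are those of their classes, which had a single anticodon.

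Some anticodons of 1 amino acid had different values, but these differences were not tested. Lys-TTT changed by −1.74 (SE 0.177, adjusted p = 3.88e-05) and Lys-CTT by −1.07 (SE 0.232, adjusted p = 0.00441) on the log2 scale in CN. The 5 leucine anticodons stayed between −1.49 (Leu-TAG) and −1.29 (Leu-AAG). Arginine had the widest spread, from −1.04 for Arg-CCT (adjusted p = 0.0549) to 0.11 for Arg-CCG (SE 0.404, adjusted p = 0.855), the only anticodon above 0, whereas Arg-ACG, which held most arginine counts, was lower at −0.91 (SE 0.147). The other anticodons not called were His-GTG, Cys-GCA, Arg-TCT and Ser-TGA.

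Within the glycine anticodon GCC, the sequences printed above had different values. The 5 copies of the TRG-GCC1 sequence together had 1680, 1282 and 1660 counts in HEK WT CN and 345, 316 and 174 in HEK UL1 KO CN, a log2 fold change of −2.22 (SE 0.168, adjusted p = 5.37e-06). The 6 copies of TRG-GCC2, which differ at 2 bases, had 1049, 705 and 910 counts against 468, 408 and 143 (−1.16, SE 0.270, adjusted p = 0.0066). Both were lower without overlap in counts. Among elongator methionine genes, the 2 copies of TRM-CAT5 had 126, 88 and 290 counts against 18, 20 and 24 (−2.76, SE 0.469, adjusted p = 0.00102), and the 3 copies of TRM-CAT4 had 50, 76 and 86 against 28, 27 and 4 (−1.60, SE 0.418, adjusted p = 0.0118). A difference between the sequences of a pair was not tested, and reads that match both cannot be told apart.

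The single genes with the largest falls in CN were TRM-CAT5-1, TRM-CAT5-2 and the valine gene TRV-AAC1-4. TRM-CAT5-1 and TRM-CAT5-2, which had the same counts in each library, gave 63, 44 and 145 counts each in HEK WT CN and 9, 10 and 12 in HEK UL1 KO CN (log2 fold change −2.77, SE 0.500, adjusted p = 0.00155). TRV-AAC1-4 gave 40, 28 and 110 counts against 13, 11 and 1 (−2.60, SE 0.647, adjusted p = 0.00947). It passed the minimum through HEK WT, so its fall is given as a description. HEK WT CN 3 was the highest library for TRM-CAT5-1, TRM-CAT5-2 and TRV-AAC1-4, but the genotypes did not overlap in CPM. Without it TRM-CAT5-1 was at −2.03 and TRV-AAC1-4 at −1.70, against −2.11 for TRG-GCC1-1 (−2.26 with all libraries), so which genes fell most rests on HEK WT CN 3. The 6 genes above 0 were TRR-CCG1-2 and TRR-CCG1-3 (0.26 each), TRC-GCA23-1 (0.11), TRC-GCA21-1 (0.08), TRR-TCG3-1 (0.06) and TRH-GTG1-7 (0.04), none of them called. Of these, TRR-CCG1-2 had 11, 7 and 14 counts in HEK WT CN and 16, 15 and 2 in HEK UL1 KO CN.

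Among the genes with the highest CN counts of each class, TRE-CTC1-2 (glutamate) had 511, 432 and 590 counts in HEK WT CN and 194, 238 and 109 in HEK UL1 KO CN (log2 fold change −1.28, SE 0.185, adjusted p = 0.000387). TRQ-CTG6-1 (glutamine), a sequence with a single copy, had 293, 326 and 460 against 101, 166 and 98 (−1.33, SE 0.214, adjusted p = 0.000774). TRK-TTT3-1 (lysine) had 115, 95 and 105 against 25, 22 and 16 (−2.07, SE 0.199, adjusted p = 2.82e-05). These genes had no overlap in CPM between the genotypes. TRI-TAT1-1 (isoleucine) was at −1.70, TRL-TAA4-1 (leucine) at −1.32, TRN-GTT2-8 (asparagine) at −1.25, TRY-GTA5-1 (tyrosine) at −1.24, TRD-GTC2-2 (aspartate) at −1.22, TRR-ACG1-1 (arginine) at −1.11, TRP-TGG1-1 (proline) at −1.08, TRV-AAC3-1 (valine) at −1.02 and TRX-CAT1-5 (iMet) at −0.95, all called. TRW-CCA1-1 (tryptophan, −1.28), TRS-ACT1-1 (serine, −0.98) and TRT-AGT2-1 (threonine, −0.98) were called with adjusted p between 0.0239 and 0.0466. Of these, TRW-CCA1-1 passed the minimum through HEK WT, as noted above, and its fall is a description. TRA-TGC7-1 (alanine, −0.79, adjusted p = 0.0471) had 125, 81 and 188 counts against 67, 77 and 49, which after TMM scaling were 1.48, 0.969 and 2.38 CPM against 0.916, 1.03 and 0.827. It was called although the genotypes overlapped in CPM, where HEK WT CN 2 fell below HEK UL1 KO CN 2. TRC-GCA17-1 (cysteine, −0.57, adjusted p = 0.27) and TRH-GTG1-8 (histidine) were not called.

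The 9 histidine tRNA genes share 1 sequence, and 0 of the 9 were called in either fraction. Of all genes, 22.3% were lower and 15.6% higher in CN, and 0.574% lower and 0.365% higher in NO. In NO the 0 is thus near the share of all genes. As copies of 1 sequence, the 9 genes are not separate results. TRH-GTG1-8 had 100, 70 and 106 counts in HEK WT CN and 75, 103 and 37 in HEK UL1 KO CN, with overlap in CPM (log2 fold change −0.14, SE 0.268, adjusted p = 0.71), and the value turned positive when scaled to total counts (0.08) or to snoRNA genes (0.05). In CN the 9 copies ranged from −0.80 (TRH-GTG1-5) to 0.04 (TRH-GTG1-7). Their summed counts over the 12 libraries ranged from 258 to 681, a ratio of 2.64 against the median of 1.40 over all groups of copies, so these copies did not all share the same reads. TRK-TTT3 (3.67), TRS-AGA2 (3.10) and TRN-GTT2 (2.94) had higher ratios. Of the copies, 3 lay in exons of another gene on chr15:45198606-45201222.

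The NO fraction held fewer tRNA counts, from 1954 to 5722 per library, and 102 of the 214 members were tested. Of these, 7 were lower and none was higher (6.86%, against 0.574% of all genes lower and 0.365% higher), with a median log2 fold change of −0.995 against 0.00 over all genes. At an unadjusted p under 0.05 there were 47, and 34 did not overlap in CPM, all lower (33.3%, against 9.17% of all genes). The 7 genes are 3 sequences, TRG-GCC1 with copies 1 to 4, TRM-CAT5 with both copies and TRQ-CTG6-1, and all 7 were also lower in CN. TRH-GTG1-8 alone was above 0 (0.10, SE 0.447), and its sign changed when HEK UL1 KO NO 2 was left out (−0.60). The number of calls depended on single libraries. It was 2 without HEK WT NO 1 or without HEK UL1 KO NO 2, 4 without HEK WT NO 2 or HEK UL1 KO NO 3, and 55 without HEK WT NO 3, and it was 0 when scaled to total counts. Without HEK WT NO 3 the TMM factors given above do not overlap between the genotypes, so that number is tied to the scaling.

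TRM-CAT5-1 had 84, 32 and 121 counts in HEK WT NO and 36, 15 and 6 in HEK UL1 KO NO, which after scaling were 2.16, 0.990 and 2.04 CPM against 0.325, 0.353 and 0.141 (log2 fold change −2.63, SE 0.397, adjusted p = 0.00343). TRG-GCC1-1 had 92, 40 and 48 counts against 48, 23 and 14, or 2.36, 1.24 and 0.810 CPM against 0.433, 0.541 and 0.328 (−1.74, SE 0.397, adjusted p = 0.0442). TRQ-CTG6-1 had 114, 54 and 95 counts against 73, 24 and 35 (−1.60, SE 0.327, adjusted p = 0.029). The CPM of the genotypes did not overlap for these genes, but the raw counts of TRM-CAT5-1, TRG-GCC1-1 and TRQ-CTG6-1 did. Summed over copies, TRG-GCC1 was called in NO (−1.74, adjusted p = 0.0323) and TRG-GCC2 was not (−0.68, SE 0.398, adjusted p = 0.403), as TRM-CAT5 was called (−2.64, adjusted p = 0.00195) and TRM-CAT4 was not (−0.66, SE 0.525, adjusted p = 0.537).

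Summed by amino acid, 5 of 19 classes tested in NO were lower (0.573% of the rows of that table), namely elongator methionine, lysine, leucine, glutamine and alanine. There were 10 classes lower without overlap in CPM (9.16% of rows). Elongator methionine was at 4.96, 2.63 and 4.48 CPM in HEK WT NO and 0.947, 1.41 and 0.352 in HEK UL1 KO NO (log2 fold change −2.15, SE 0.390, adjusted p = 0.0149). Lysine was at 6.94, 4.15 and 3.52 against 1.68, 1.67 and 1.38 CPM (−1.62, SE 0.303, adjusted p = 0.0186). Leucine was at 6.79, 4.49 and 5.04 against 2.03, 2.02 and 2.39 CPM (−1.34, SE 0.274, adjusted p = 0.0288). These classes had HEK WT libraries above all HEK UL1 KO libraries. Glutamine was at 4.96, 2.51 and 2.90 against 1.20, 1.04 and 1.45 CPM (−1.49, SE 0.311, adjusted p = 0.0317), and alanine at 1.95, 0.743 and 1.03 against 0.406, 0.306 and 0.164 CPM (−2.01, SE 0.419, adjusted p = 0.0317). Both were also without overlap. The number of classes called was 1 without HEK WT NO 1, 2 or 3 without a HEK UL1 KO NO library and 14 without HEK WT NO 3, and 0 when scaled to total counts.

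Glutamate and glycine did not pass the test in NO, at −1.19 (SE 0.359, adjusted p = 0.123) and −1.23 (SE 0.382, adjusted p = 0.132). Initiator methionine had 16.9, 9.07 and 3.68 CPM in HEK WT NO and 3.85, 14.5 and 7.27 in HEK UL1 KO NO (−0.21, SE 0.472, adjusted p = 0.836). Its HEK WT libraries spread more widely than the genotypes differed. Aspartate (−0.31, SE 0.337, adjusted p = 0.652) and histidine (−0.11, SE 0.349, adjusted p = 0.886) were likewise near 0, and all 3 classes turned positive when scaled to total counts, as did also arginine and cysteine when scaled to snoRNA genes. The remaining 9 classes lay between −1.28 and −0.69 with adjusted p between 0.0694 and 0.427. Of 33 anticodon sums, 7 were lower in NO (0.578% of the rows), Met-CAT, Leu-AAG (−2.25, SE 0.454, adjusted p = 0.0266), Leu-CAG, Lys-CTT, Lys-TTT, Gln-CTG and Ala-TGC, and 14 did not overlap in CPM (9.16% of rows). This number was 1 without HEK WT NO 1 and 22 without HEK WT NO 3, and 0 when scaled to total counts.

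**Figure D4:**
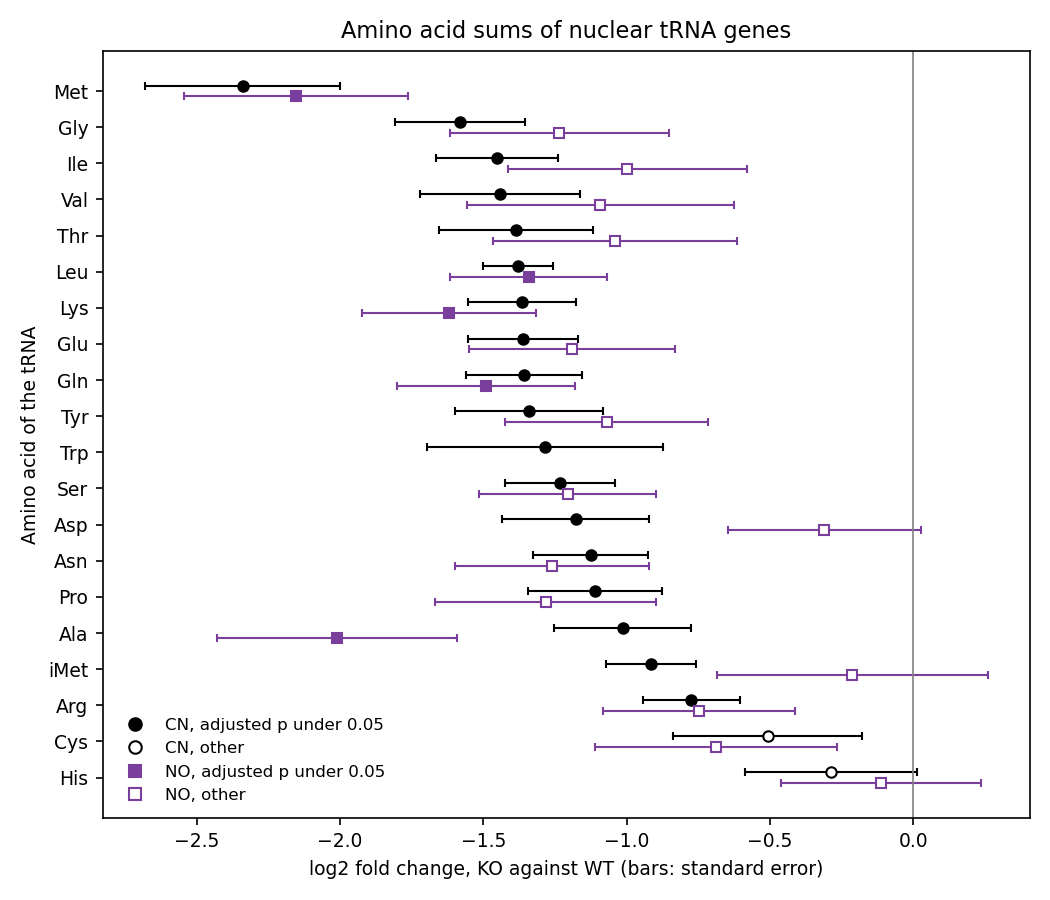
log2 fold change of HEK UL1 KO against HEK WT for the sum of each amino acid in CN (circles) and NO (squares), with bars for the standard error; filled symbols passed an adjusted p of 0.05. Elongator methionine is at −2.34 in CN and −2.15 in NO, histidine is at −0.29 and −0.11, and all sums are below 0 in both fractions under TMM scaling, whereas aspartate, histidine and iMet turn positive in NO with total counts, and arginine and cysteine too with snoRNA scaling.

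Whether the effect of the knockout differed between the fractions was tested as an interaction over the 12 libraries, taken as independent although CN and NO libraries of 1 number may come from the same cells, which the labels do not say. It passed for 0 of 202 members and 0 of 20 amino acid sums with edgeR (0.114% of all rows) and for 0 with DESeq2. At an unadjusted p under 0.05 in edgeR there was 1 gene, TRK-TTT7-1 (lysine), and 1 sum, aspartate, whose log2 fold change was higher in NO than in CN by 1.01. With the replicate number within each genotype as a block across the fractions, 0 of 210 members and 0 of 20 sums passed, and 2 members (TRG-GCC2-1 and TRK-TTT7-1) and no sum had an unadjusted p under 0.05. A difference between the fractions was thus not detected, which does not show that the effects were alike.

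The make-up of the tRNA counts, which does not depend on how libraries are scaled, was compared as the share of each class in all member counts. In CN the shares of 6 of 20 classes did not overlap between the genotypes. As 52.8% of all genes had CPM without overlap in either direction in CN, this number of classes is not above the background, and the values are given as a description. Histidine took 3.43, 2.63 and 2.84% of member counts in HEK WT CN and 6.20, 6.87 and 3.94% in HEK UL1 KO CN. Initiator methionine took 6.30, 7.23 and 6.35% against 8.46, 8.32 and 8.75%. Arginine (2.89 to 4.02%) and cysteine (0.607 to 1.08%) were also higher on average in HEK UL1 KO, whereas glycine (21.6 to 17.2%) and elongator methionine (1.41 to 0.711%) were lower. Glutamate kept the largest share, 22.6 ± 0.741% in HEK WT CN and 21.2 ± 1.66% in HEK UL1 KO CN, with overlap. When the copies of a sequence were averaged first, arginine, cysteine and iMet stayed higher and elongator methionine lower, and histidine and glycine overlapped.

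In NO the shares of 2 of 20 classes did not overlap, which is likewise not above the 20.1% of all genes without overlap in CPM in either direction. Elongator methionine took 3.37, 3.42 and 6.85% in HEK WT NO and 2.71, 2.16 and 0.768% in HEK UL1 KO NO. Histidine took 2.60, 4.22 and 4.97% against 5.14, 8.32 and 5.27%. Both were without overlap also with copies averaged. Initiator methionine was at 9.62 ± 3.47% and 16.3 ± 5.57% in NO, with overlap.

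**Figure D5:**
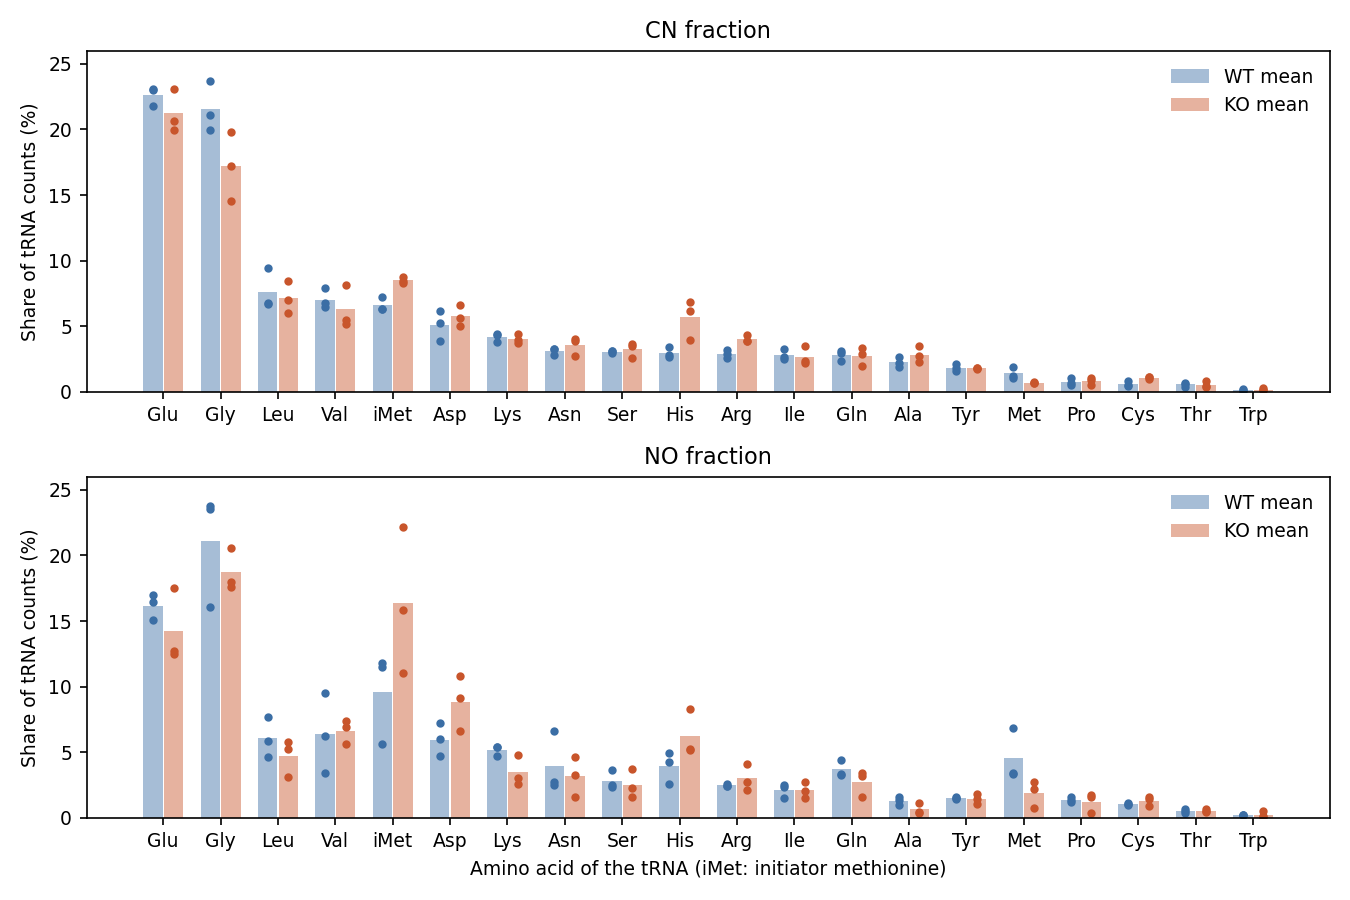
Share of all nuclear tRNA counts, in percent, taken by each amino acid in CN (top) and NO (bottom); bars show the mean of 3 libraries and points the libraries. Glutamate and glycine hold the largest shares in CN, histidine is higher and elongator methionine lower in HEK UL1 KO in both fractions, and initiator methionine is higher in HEK UL1 KO CN.

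To compare levels of counts between classes, counts with copies averaged were divided by gene length and total counts (RPKM). Members without coordinates had no length and were left out of their classes, valine, serine and initiator methionine. Of the 2 initiator methionine sequences TRX-CAT2-1 was left out, which had 54, 41 and 68 counts in HEK WT CN. The initiator levels and ratios here are therefore those of TRX-CAT1 alone. How fully and how evenly the libraries captured the tRNAs of each class was not measured, so these values are not amounts of tRNA in the cell. On this scale the HEK WT CN level was 160 ± 21.4 for glycine, 127 ± 9.18 for glutamate, 102 ± 15.05 for leucine and 70.8 ± 6.59 for glutamine (SD, n = 3). Ranked by this level, 14 of the 19 neighbouring pairs of classes overlapped between libraries, and the 5 pairs that did not were glycine and glutamate, leucine and glutamine, isoleucine and lysine, asparagine and initiator methionine, and histidine and tryptophan. The pair of asparagine and initiator methionine was not compared with TRX-CAT2-1 included. Initiator methionine (TRX-CAT1 alone) was at 19.9 ± 0.268, elongator methionine at 15.9 ± 6.05, histidine at 8.43 and tryptophan lowest at 3.94. The ratio of the NO to the CN level in HEK WT ranged from 0.262 for alanine to 1.55 for elongator methionine, the only class above 1. The elongator methionine ratio was 1.03 without HEK WT NO 3, and proline also exceeded 1 without HEK WT NO 2. In HEK UL1 KO the ratio was 1.78 for elongator methionine and 1.296 for initiator methionine. The initiator value rested on HEK UL1 KO NO 2, without which it was 0.899. As the members were chosen by their CN level, these ratios were not tested.

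Genes were also grouped by features that the selection did not use, as a description. The numbers lower are for CN, where 22.3% of all genes were lower. Leucine and serine tRNAs, which have a long variable arm, had a median log2 fold change of −1.36 in CN with 26 of 37 lower, and the other tRNAs −1.17 with 121 of 165 lower. Genes longer than 80 bases (100 for leucine and serine), taken to hold an intron, had a median of −1.38 with 11 of 12 lower, among them all 5 tested tyrosine, 3 isoleucine and 3 leucine genes. The core letters GTTCGA of the B box were searched on the inferred strand only. They were found in 81.0% of the 210 members with sequence. Of the 273 nuclear tRNA genes below the minimum count, 191 had a sequence, and 50.8% of these had the letters. A sequence was kept only when the strand could be inferred, for which GTTC or GATC after the anticodon counted. As this overlaps the B box letters, the percentages cannot be compared directly. Among members the median change was −1.22 with GTTCGA (116 of 161 lower) and −1.05 without it (29 of 37 lower). Genes outside other genes (80 of 113 lower, median −1.16), in introns (49 of 63, −1.26) and in exons (16 of 22, −1.18) had similar medians.

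By position, members were grouped into clusters in which neighbours lay within 500 kb, giving 24 clusters of at least 2 genes. The numbers lower are for CN, where 22.3% of all genes were lower. The largest, 55 members of 15 classes on chr6:26286526-27902978, had 39 of 50 tested genes lower in CN with a median of −1.06. The cluster on chr1:161399700-161531184 held 28 members of only 9 sequences, and 26 of 27 were lower (median −1.69). It contains TRG-GCC1-1 to TRG-GCC1-4, spaced 7373, 7431 and 7360 bases apart, and TRE-CTC1-2. On chr5:181097070-181222467, 12 of 13 were lower (median −1.77). The other chromosome 6 cluster, chr6:28543114-28982270, had 8 of 16 lower (−0.89). Of 3 cysteine genes on chromosome 7 and 3 histidine genes on chromosome 15, which are copies of 1 sequence, 0 were called. Sets this small cannot be set apart from the share of all genes. Clusters hold copies of the same sequence and differ in counts, so position, sequence and depth cannot be told apart here. Of the 62 members with a mean of at least 50 CN counts 57 were lower, and of the 140 tested below that 90 were.

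The genes that make and handle tRNAs were read from the same fits. Of 18 RNA polymerase III subunit genes, 9 were lower and 3 higher in CN (median log2 fold change −0.32), where 22.3% of all genes were lower and 15.6% higher. The lower genes included POLR3E (−0.91, SE 0.0957, adjusted p = 5.09e-05) and POLR3B (−0.52), a subunit of the catalytic core. The higher genes were POLR3D (0.65), POLR3GL (0.72) and POLR1C (0.41), which held the most counts of the list. The summed counts of the 18 genes, most of them on POLR1C, were higher in HEK UL1 KO without overlap. POLR1C alone was at 135 ± 6.82 CPM in HEK WT CN and 180 ± 5.30 in HEK UL1 KO CN after TMM scaling. The sum without POLR1C is not given, so the sums do not describe the other genes. The sums of the 18 genes were at 169 to 220 unscaled CPM in HEK WT CN against 259 to 270 in HEK UL1 KO CN, and at 192 to 242 against 285 to 310 in NO. Of 10 genes for TFIIIB, TFIIIC and MAF1, 5 were lower and 1 was higher (−0.29). BDP1, a TFIIIB subunit, was at −0.75 (SE 0.0694, adjusted p = 2.2e-05), and MAF1, the repressor of RNA polymerase III, at 0.52 (SE 0.149, adjusted p = 0.0191). None of these 28 genes was called in NO.

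Among 26 genes for tRNA end processing, splicing and export, 11 were lower and 1 higher in CN (median −0.28). TRNT1, which adds the CCA end, was at −0.98 (SE 0.112, adjusted p = 8.33e-05) and RTCB, the tRNA ligase, at −0.54. Of 51 tRNA modification genes 17 were lower and none higher (−0.23), including QTRT2 (−0.76). Of 22 cytosolic aminoacyl-tRNA synthetase genes 6 were lower and 2 higher (−0.14), shares close to or below those of all genes, including EPRS1, which charges glutamate and proline tRNAs (−0.75), and RARS1 (arginine, −0.67). When scaled to total counts the numbers lower fell to 1 of 18, 1 of 10, 3 of 26, 1 of 51 and 3 of 22 in the order given, with 6.33% of all genes lower and 13.6% higher, and the median of the synthetases turned to 0.06. No gene of these lists was called in NO.

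Of 7 tested genes for tRNA cleavage and decay, 3 were lower and 2 higher in CN, where 22.3% of all genes were lower and 15.6% higher. With total counts none was lower and the same number higher, against 6.33% and 13.6% of all genes. The higher genes were SLFN11 and SLFN13, whose products can cleave tRNA. SLFN11 had 5, 5 and 1 counts in HEK WT CN and 797, 1020 and 675 in HEK UL1 KO CN (log2 fold change 8.02, SE 0.223, adjusted p = 1.07e-08). In NO it had 14, 6 and 50 counts against 989, 334 and 475 (4.24, SE 0.411, adjusted p = 6.8e-05). SLFN13 was at 3.97 (SE 0.350, adjusted p = 1.57e-05) in CN and 2.00 (SE 0.413, adjusted p = 0.0308) in NO. With total counts no gene of this list passed in NO. The part of these genes in the tRNA levels was not tested.

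Other short RNAs were also counted in the same fits, where 22.3% of all genes were lower and 15.6% higher in CN. Of 18 other RNA polymerase III transcripts tested in CN, 10 were lower and none higher (median −0.74), among them RNY5, a Y RNA, at −2.09 (SE 0.241, adjusted p = 8.75e-05) and the U6 gene RNU6-1 at −0.93. Of 22 mitochondrial tRNA genes, which are transcribed in the organelle, 11 were lower and 2 higher in CN (−0.29), from TRNN at −1.33 to TRND at 0.80. In NO 4 of them were lower (−0.98), where 0.574% of all genes were lower. Of 189 snoRNA genes 82 were lower and 3 higher in CN (−0.81), and in NO 52 of 304 were lower and none higher (−1.05). With total counts the numbers lower in CN were 8 of 18, 6 of 22 and 44 of 189 in the order given, against 6.33% of all genes, and none of these genes was lower in NO, where 0.00861% of all genes were lower and 0.0201% higher. The summed snoRNA counts, given above, overlapped between the genotypes in both fractions. Scaling to total counts also moved the median of all genes to 0.24 in CN and 0.40 in NO, and that of the nuclear tRNA genes to −0.96 and −0.49.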

How the data were processed

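Total RNA of the NO and CN fractions was sequenced from CORALL libraries (Lexogen) without rRNA depletion as single reads of 75 bases. The authors trimmed with Cutadapt 3.7, aligned to GRCh38 with STAR 2.7.8, allowing up to 20 alignments per read, and deposited raw counts per gene from featureCounts in 2 tables. The annotation version and the counting options for strand and for reads with several alignments are not given in the sources used here.

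From these counts, rows were tested within each fraction with edgeR 4.0.16 (R 4.3.3; filterByExpr with a minimum count of 10, TMM, quasi-likelihood F test, Benjamini-Hochberg over all rows tested, threshold 0.05). The SE is the absolute log2 fold change divided by the square root of F. For sums, the member rows were replaced by 1 row per amino acid or anticodon before the fit. The interaction was fitted on all 12 libraries. DESeq2 1.42.0, 4 scalings, other filters, the replicate block, single libraries left out and copies averaged served as alternatives, the last and the restriction to intergenic genes being chosen after seeing the data. The fits were tested on simulated counts. Groups came from the sample labels. Named genes were those with the highest CN count of each class, the 3 largest called falls without overlap in each fraction, the 3 genes on each side of the minimum and up to 3 genes of each pathway list with the smallest p; others were named after their values were seen. The members and lists were chosen with earlier results of these data known. Permutation tests of shares, which cannot go below an exact p of 0.1 with 3 against 3 libraries, are not reported. Some items that this rule names are not reported here. Overlaps with other genes are from GENCODE 44 and coordinates from RefSeq, both on GRCh38. Sequences were read from the GRCh38 genome, with the strand inferred from the sequence. The precision of a value is limited by the 3 libraries of a group, and genes with few counts carry large SE.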

Additional observations from a re-analysis of the deposited data

Results flagged for a closer look

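Signal was found in rows outside the members, namely nuclear tRNA symbols with an added suffix, which stand for further annotated copies such as those on alternate loci. Of these, 79 had a mean of at least 10 counts in CN and were not used in any comparison above. All 79 were tested in the same fit, where 48 were lower and none higher in HEK UL1 KO (median log2 fold change −1.25). Of all genes, 22.3% were lower and 15.6% higher. Of 169 suffixed rows, 136 had the same counts as the row without the suffix, so they do not add independent evidence.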

How the results depend on the processing

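In CN the number of tRNA genes lower in HEK UL1 KO (147) was 90 with total counts, 83 with at least 10 counts in every library, 93 with all 12 libraries in 1 fit and 88 to 149 without 1 library (lowest without HEK UL1 KO CN 3). By construction fewer rows were tested for members with at least 50 counts (57), genes outside every GENCODE gene (80) and identical copies summed (68) or averaged (66). In NO the 7 genes became 15 with DESeq2, 0 with total counts, 2 with snoRNA scaling, 41 with no filter, 0 with at least 10 counts in every library, 31 with all 12 libraries, 3 outside GENCODE genes, 3 with copies averaged and 2 to 55 without 1 library. In the same order of settings, the 5 NO amino acid sums became 9, 0, 1, 11, 1 and 8, and 1 to 14 without 1 library. The 7 NO anticodon sums became 0 with total counts, 1 with snoRNA scaling, 20 with no filter, 0 with at least 10 counts in every library, 13 with all 12 libraries, 3 with copies averaged and 1 to 22 without 1 library. CN amino acid sums called stayed between 16 and 19 and CN anticodon sums without 1 library between 26 and 33. The interaction passed for 0 members and sums in all alternatives run. The cause of these shifts was not tested.

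The difference in the share of all counts on tRNA genes, in unscaled CPM, HEK UL1 KO minus HEK WT, was −94.6 in CN (−103 to −83.3 without 1 library) and −23.4 in NO (−39.5 to −12.8). With counts outside rRNA genes as the denominator it was −458 and −94.7. The number of classes whose share did not overlap was 6 to 9 in CN and 2 to 10 in NO without 1 library, and 1 in NO over all listed tRNA rows.

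Signs changed for values near 0. In CN, without 1 library, cysteine ranged from −0.737 to 0.0857 (highest without HEK WT CN 3), histidine from −0.569 to 0.0439 and TRH-GTG1-8 from −0.419 to 0.112 (both highest without HEK UL1 KO CN 3). TRH-GTG1-8 in CN was 0.0839 with total counts and 0.0456 with snoRNA scaling. In NO, with total counts, aspartate was 0.16, histidine 0.267, iMet 0.382, TRD-GTC2-2 0.157, TRV-AAC3-1 0.113 and TRX-CAT1-5 0.165. With snoRNA scaling, arginine was 0.0549, aspartate 0.545, cysteine 0.102, histidine 0.628, iMet 0.642, TRD-GTC2-2 0.493, TRV-AAC3-1 0.366 and TRX-CAT1-5 0.412. Without 1 NO library, aspartate ranged from −0.554 to 0.00616, histidine from −0.676 to 0.188, iMet from −0.785 to 0.46, TRV-AAC3-1 from −0.931 to 0.38, TRX-CAT1-5 from −0.991 to 0.192 and TRH-GTG1-8 from −0.600 to 0.456. Histidine was 0.0107 with at least 10 counts in every library. Over all alternatives, single named values kept direction and side of the threshold 936 times, lost the call 97 times, gained it 41 times and changed sign 31 times.

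Same-numbered libraries across genotypes had correlations of −0.04 to −0.33 in CN and −0.18 to −0.41 in NO. This check gave no sign of pairing by replicate number. Across the fractions of 1 genotype, same-numbered CN and NO libraries had correlations of −0.54 to −0.08. RNA found in 1 fraction is missing from the other, so fractions of the same cells could deviate in opposite directions. This second check therefore cannot decide whether these libraries were paired. With the number as a replicate block, 107 CN genes, 17 CN amino acid sums, 30 CN anticodon sums, 10 NO genes, 4 NO amino acid sums and 6 NO anticodon sums were lower, and TRH-GTG1-8 in NO was −0.0889.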
